A study of Mus musculus with 24 samples.

Results

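Transcript levels of the mouse adrenal gland were compared between circadian time (CT) 14, early in the projected night, and CT2, early in the projected day and 12 h away. The CT14 group holds the arrays taken 50 h and 74 h after lights off, and the CT2 group those taken 38 h and 62 h after lights off, in each case 1 array with the letter B in its title and 1 without. That selection by hour took 8 of the series' 24 arrays, 4 at CT14 and 4 at CT2, and every gene that passed a filter on dim signals, 13880 in all, was tested. The 24 arrays cover 12 time points in constant darkness. All groups were whole adrenals of male C57B/6J mice, 3 months old, that had lived for 2 weeks in alternating 12 h of light and 12 h of darkness. No group carried a genetic change or a drug. The glands behind all 8 arrays were taken in the dark, so CT14 and CT2 differ in circadian time and not in light. Nothing in the labels ties an array to 1 animal or to a pool. The p-values therefore reflect array-to-array spread alone, and that spread may be technical.

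The circadian clock of mammals is a feedback loop of transcription. ARNTL (also called BMAL1) pairs with CLOCK or NPAS2 and binds E-boxes, with the core letters CACGTG, in the promoters of Per, Cry, Nr1d, Dbp and other genes. PER and CRY proteins then block that activation, while the REV-ERB repressors (Nr1d1, Nr1d2) and ROR activators act on the Arntl gene. The adrenal cortex makes corticosterone from cholesterol under the pituitary hormone ACTH, which signals through cyclic AMP, and in nocturnal rodents corticosterone is highest around the onset of activity. The medulla in the centre of the gland makes adrenaline and noradrenaline.

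Some arrays held nearly the same values. The 50 h array and the 74 h B array differed by at most 1.053-fold at every signal above 50, as did the 38 h B and 62 h B arrays. The SD of the log2 ratio was 0.042 in each near-copy pair, against 0.217 to 0.262 in the 10 other pairs within a time. Each near-copy pair was averaged and counted as 1 profile, which left 3 profiles per circadian time. Values below are log2(signal + 51), listed at CT14 for the averaged 50 h and 74 h B arrays, then 74 h, then 50 h B, and at CT2 for 38 h, then 62 h, then the averaged 38 h B and 62 h B arrays. Differences are CT14 minus CT2 with the standard error of the limma fit, and a gene passed the test at an adjusted p under 0.05 over the 13880 genes. Median levels over all probe sets were 8.28 to 8.31 at CT14 and 8.23 to 8.27 at CT2, and Gapdh probe sets at the 5' end over those at the 3' end gave 1.12 in the CT14 profiles and 1.05 to 1.12 in the CT2 profiles. A control probe set, ThrX-3, read 56.3 to 78 at CT14 and 60.3 to 80 at CT2. It read 1180 to 1240 at CT10 and 513 to 1860 at CT18. CT14 and CT2 were thus alike in this control, and CT10 and CT18 were not. Albumin, a liver transcript, stood apart in 1 profile per time: it read 7.25, 9.34 and 7.56 at CT14, against 7.77, 10.29 and 7.88 at CT2. Counts are therefore also given without the 62 h and 74 h profiles for the lists described at length.

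Of the 13880 genes, 915 (6.59%) were higher and 906 (6.53%) lower at CT14, 1821 (13.1%) in all. Most differences were small: the median was 0.34 among the genes that were higher, a 1.26-fold excess at CT14, and -0.33 among those that were lower. A difference of at least 2-fold was seen in 28 of the higher and 21 of the lower genes. The 3 CT14 profiles lay above all 3 CT2 profiles for 2388 genes (17.2%) and below them for 2229 (16.1%), 33.3% in either direction. Per2 had the largest rise and the noradrenaline transporter gene Slc6a2 the largest fall. The counts depended on single arrays: without the 38 h profile 449 genes were higher and 415 lower, without the 62 h profile 472 and 453, and without the 50 h B profile 473 and 610, while without both the 62 h and 74 h profiles 672 were higher and 500 lower. Higher genes made up 50.2% of the calls, but 35.7% when each array was centred on its median, with 673 higher and 1213 lower. Of the 94 genes named here that passed, 72 passed again whichever profile was left out, and the others are marked where they appear. A fit that takes the spread from 12 profiles at 4 circadian times, or from all 18 profiles, called fewer genes. Of the genes that passed in every fit with 1 profile left out, Per1, Bhlhe40, Cdkn1a, Insig1, Fkbp5, Mcm6, Eng, Ucp1, Cidec and Cyp2e1 did not pass in either of these fits. Hspa1b, Hsph1, Chordc1, Scarb1, Btg1, Cldn5 and 4930533K18Rik did not pass in the fit over 18 profiles.

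**Figure D1:**
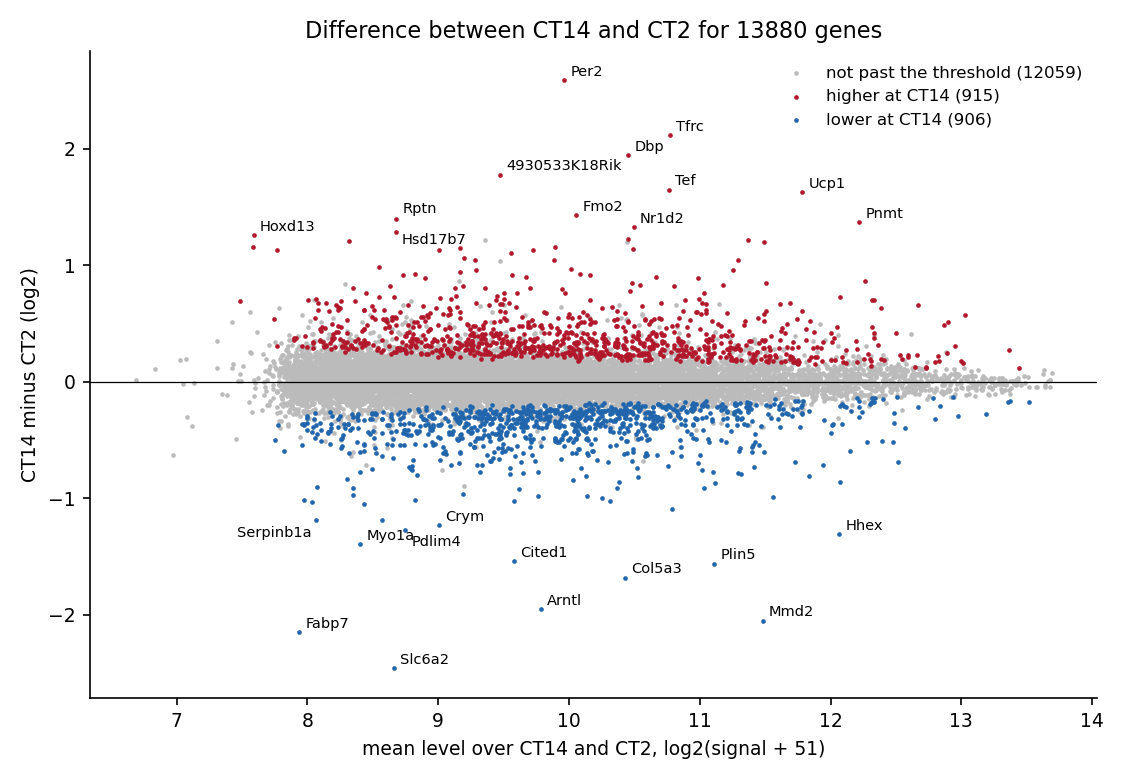
Difference between CT14 and CT2 (y axis, log2) against the mean level over both times (x axis, log2(signal + 51)) for 13880 genes, 1 point per gene, with the 24 genes of largest change named. Red points were higher and blue points lower at CT14 at an adjusted p under 0.05. Per2 lies highest at 2.59 and Slc6a2 lowest at -2.46.

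Of the 18 core clock genes tested, 7 were higher at CT14 (Per1, Per2, Cry1, Cry2, Nr1d2, Bhlhe40 and Ciart) and 1, Arntl, was lower, beside 6.59% and 6.53% of all genes. The median difference over the 18 genes was 0.11, and that over all genes 0.016. Repressors of the loop thus made up the higher genes and an activator was the lower one. Without both the 62 h and 74 h profiles 6 members were higher, and with the spread taken from 12 or 18 profiles 4 were, since Per1, Bhlhe40 and Ciart did not pass there (adjusted p up to 0.0715 for Per1 and 0.0993 for Bhlhe40).

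Per2 encodes a repressor that binds cryptochrome. Its level was 11.26, 11.10 and 11.42 at CT14, against 8.85, 8.67 and 8.51 at CT2. All CT14 profiles lay far above all CT2 profiles, with a gap many times the spread within each time. The difference was 2.59 ± 0.10 (SE, n = 3 profiles per time), a 6.02-fold excess at CT14 with an adjusted p of 4.85e-06 (limma). A second, dimmer Per2 probe set differed by 0.30. Per1, its relative, read 10.06, 9.96 and 10.07 at CT14, against 9.31, 9.38 and 8.62 at CT2. The CT14 values were tightly grouped and above all CT2 values, among which the averaged B arrays were lowest, and the difference was 0.92 ± 0.17 (adjusted p = 0.0091). Per3 read 9.46, 9.22 and 9.36 at CT14, against 9.08, 9.24 and 9.26 at CT2, so the groups overlapped, and it did not pass (0.15 ± 0.08). Of the 3 other Per3 probe sets, 1 passed, with 0.38.

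The cryptochromes Cry1 and Cry2, partners of the PER proteins, were also higher at CT14. Cry1 read 9.99, 9.62 and 9.80 at CT14, against 8.72, 8.63 and 8.90 at CT2, a difference of 1.05 ± 0.10 (adjusted p = 0.000477). Cry2 read 9.56, 9.72 and 9.65 at CT14, against 8.85, 8.68 and 8.57 at CT2, a difference of 0.94 ± 0.08 (adjusted p = 0.000296). In neither gene did the 2 sets of profiles overlap. Bhlhe40, which encodes the E-box repressor DEC1, differed by 0.70 ± 0.10, while its relative Bhlhe41 (DEC2) did not pass, at 0.10 ± 0.06. Ciart, a repressor of CLOCK and ARNTL, read 8.04, 8.09 and 8.19 at CT14, against 7.70, 7.63 and 7.84 at CT2. Its profiles did not overlap, but the difference of 0.38 ± 0.09 passed narrowly (adjusted p = 0.025) and did not pass without the 74 h, 50 h B, 38 h or 62 h profile, where adjusted p reached 0.0944.

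The promoters of the higher clock genes are shown for their E-boxes, since these are the sites that ARNTL and its partners bind. The sequences are the 250 bases before the annotated start from RefSeq (GRCm38.p6), 5' to 3' on the gene's strand, with each CACGTG in capitals. They are Ciart (chr3:95882229-95882478, minus strand), Cry1 (chr10:85185055-85185304, minus strand) and the output gene Tef (chr15:81802423-81802672, plus strand).
Ciart: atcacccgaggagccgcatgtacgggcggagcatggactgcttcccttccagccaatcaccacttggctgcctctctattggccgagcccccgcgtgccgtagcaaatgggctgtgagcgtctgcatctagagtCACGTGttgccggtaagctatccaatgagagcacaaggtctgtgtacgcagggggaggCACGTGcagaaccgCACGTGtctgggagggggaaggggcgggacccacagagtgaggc
Cry1: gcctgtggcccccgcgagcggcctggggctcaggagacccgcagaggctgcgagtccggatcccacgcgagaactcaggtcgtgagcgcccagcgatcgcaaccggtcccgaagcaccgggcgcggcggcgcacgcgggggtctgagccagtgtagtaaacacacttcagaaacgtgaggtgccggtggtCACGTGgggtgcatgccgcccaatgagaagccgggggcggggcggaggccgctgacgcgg
Tef: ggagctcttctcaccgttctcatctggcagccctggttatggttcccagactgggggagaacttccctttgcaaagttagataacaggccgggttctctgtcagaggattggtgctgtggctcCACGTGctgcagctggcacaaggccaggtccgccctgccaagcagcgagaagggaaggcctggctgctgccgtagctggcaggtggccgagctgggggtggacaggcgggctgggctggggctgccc
Ciart holds 3 copies, whose first bases lie 116, 58 and 44 bases before the start, and Cry1 holds 1 copy, 60 bases before it. RefSeq promoters matched 11116 of the 13880 genes. CACGTG, which reads alike on both strands, was found in 3 of the 5 higher core clock genes with a promoter (Ciart, Cry1 and Per1). It was found in 12.0% of the 727 higher genes with a promoter, 8.4% of the 738 lower ones and 9.41% of all. A match describes these letters only and shows no binding.

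Arntl, the activator, had the opposite change. It read 9.43, 8.34 and 8.67 at CT14, against 10.76, 10.66 and 10.86 at CT2. All CT14 profiles were lower, and they were also more scattered, with the averaged 50 h and 74 h B arrays nearest to CT2. The difference was -1.95 ± 0.22 (adjusted p = 0.000979), which makes CT2 3.85-fold higher. A second Arntl probe set read 8.3 to 8.5 in all 6 profiles and differed by -0.02, so the 2 probe sets disagree. Of its partners, Clock read 10.05, 9.87 and 9.97 at CT14, against 10.27, 10.20 and 10.10 at CT2, without overlap, yet did not pass (-0.23 ± 0.07, adjusted p = 0.0608). Both dimmer Clock probe sets passed, with -0.60 and -0.41. Npas2 did not pass (-0.27 ± 0.11).

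The REV-ERB pair split. Nr1d2 (REV-ERB beta) read 10.90, 11.25 and 11.34 at CT14, against 9.89, 9.96 and 9.63 at CT2, without overlap, and rose by 1.33 ± 0.12 (adjusted p = 0.000344). Nr1d1 (REV-ERB alpha) read 7.54, 8.38 and 8.36 at CT14, against 8.54, 8.81 and 9.07 at CT2. Every CT14 value of Nr1d1 was below every CT2 value, but the difference of -0.71 ± 0.22 did not pass (adjusted p = 0.0649). Rora, which encodes an activator of Arntl, did not pass (0.10 ± 0.07). A dimmer Rora probe set passed in the other direction, with -0.44, and the remaining ones did not pass. The kinase genes Csnk1d and Csnk1e, whose products mark PER for breakdown, and the ubiquitin ligase genes Btrc and Fbxw11 lay within 0.12 of no difference and did not pass.

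**Figure D2:**
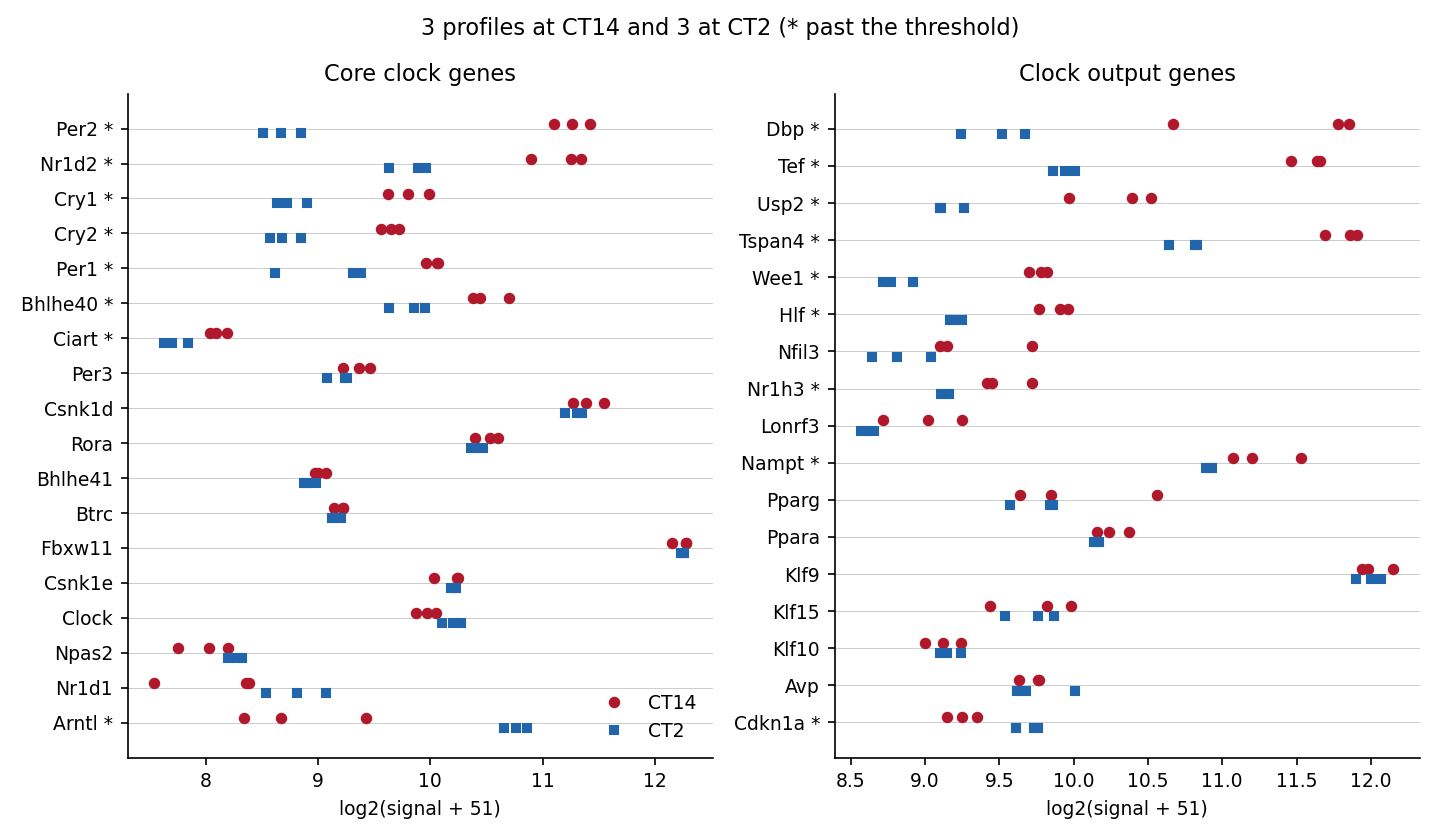
Levels of the 18 core clock genes (left) and 17 clock output genes (right) in each of the 3 CT14 profiles (red circles) and 3 CT2 profiles (blue squares). The x axis is log2(signal + 51), genes are ordered by difference, and an asterisk marks genes past the threshold. Circles and squares are far apart for Per2, Dbp, Tef and Arntl and overlap for Per3, Csnk1d and Klf9.

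Among 17 tested clock output genes, 8 were higher at CT14 (Dbp, Tef, Hlf, Wee1, Usp2, Tspan4, Nampt and Nr1h3) and Cdkn1a was lower, with a median difference of 0.38. These were 47.1% and 5.88% of the list, beside 6.59% and 6.53% of all genes, and 6 were higher with the spread taken from 12 or 18 profiles. The activators that bind D-box sites all rose. Dbp read 10.67, 11.78 and 11.85 at CT14, against 9.52, 9.67 and 9.24 at CT2, a difference of 1.95 ± 0.27 (adjusted p = 0.00243). The averaged 50 h and 74 h B arrays were the lowest of the CT14 profiles and still lay above all CT2 profiles. Tef read 11.46, 11.64 and 11.66 at CT14, against 9.94, 10.01 and 9.86 at CT2, a difference of 1.65 ± 0.07 (adjusted p = 4.85e-06). Its other, dimmer probe sets differed by 0.30, which did not pass, and 0.35, which did. Hlf differed by 0.68 ± 0.07. Nfil3, whose product represses the same sites, did not pass (0.50 ± 0.16, adjusted p = 0.0771). Wee1, a kinase gene that holds back mitosis, rose by 0.96 ± 0.07, although its other probe set differed by 0.04. Tspan4, a tetraspanin gene, read 11.69, 11.86 and 11.91 at CT14, against 10.82, 10.83 and 10.64 at CT2, a difference of 1.05 ± 0.07. Cdkn1a, which encodes the cell cycle inhibitor p21, fell by 0.45 on the log2 scale. The call of Nampt was lost without the 50 h B, 38 h, 62 h or averaged CT2 B profile (adjusted p up to 0.122), and that of Nr1h3 without 38 h or 62 h (up to 0.0605).

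Cholesterol synthesis was the gene list with the largest share of higher members. Of 18 tested genes 12 were higher at CT14 and 0 lower (limma, with 6.59% and 6.53% of all genes), and the median difference was 0.66. The count was also 12 without both the 62 h and 74 h profiles and was 10 to 12 when 1 profile was left out. Summed signal over the 18 genes was 41761 to 47631 in the CT14 profiles, against 26768 to 28189 in the CT2 profiles, so the groups did not overlap. The 12 span the pathway: Hmgcs1, Mvk, Mvd, Idi1, Fdps and Fdft1 act before squalene, and Sqle, Lss, Cyp51, Msmo1, Hsd17b7 and Dhcr7 turn squalene into cholesterol. Pmvk, Ggps1, Tm7sf2, Nsdhl, Ebp and Sc5d did not pass, with differences of -0.17 to 0.28.

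Sqle encodes squalene epoxidase, the first enzyme of the sterol branch. It read 10.95, 11.07 and 11.16 at CT14, against 9.90, 9.97 and 9.90 at CT2, a difference of 1.14 ± 0.06 (2.2-fold, adjusted p = 3.27e-05). Hmgcs1, an early enzyme gene of the pathway, read 12.47, 12.38 and 12.49 at CT14, against 11.75, 11.71 and 11.68 at CT2, a difference of 0.73 ± 0.04 (adjusted p = 5.36e-05). In both genes the gap between the times was several times the spread within them. Hsd17b7, a 3-ketosteroid reductase gene measured by a probe set that may bind related transcripts, read 9.21, 9.27 and 9.50 at CT14, against 7.98, 7.96 and 8.15 at CT2, a difference of 1.29 ± 0.09. Its 3 other probe sets differed by 0.79, 0.61 and -0.06, the last of which did not pass. Msmo1 differed by 0.87 ± 0.06 and Dhcr7, the last step in one branch, by 0.66 ± 0.05. Mvk and Mvd lost their calls without the 38 h profile, where adjusted p reached 0.078 and 0.0553, and Mvk also without 50 h B, 62 h or the averaged CT2 B profile.

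The promoter of Hmgcs1 (chr13:119690101-119690350, plus strand, GRCm38.p6, RefSeq) is printed because it holds a match to a sterol response element, the site of the SREBP factors that switch on this pathway when sterols are low. Capitals mark TCACNCCAC, searched on both strands.
Hmgcs1: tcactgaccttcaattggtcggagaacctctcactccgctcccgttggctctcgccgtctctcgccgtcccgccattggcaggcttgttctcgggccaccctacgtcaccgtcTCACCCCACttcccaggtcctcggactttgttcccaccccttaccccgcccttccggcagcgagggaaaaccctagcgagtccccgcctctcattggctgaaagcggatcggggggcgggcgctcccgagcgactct
The match lies 137 bases before the start. The same letters were found in 1 of the 9 higher cholesterol synthesis genes with a promoter, in 1.93% of higher, 1.63% of lower and 1.26% of all genes.

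Genes that sense sterols or move cholesterol changed in both directions. Of 12 tested genes of SREBP control and sterol response, 3 were higher and 1 lower (25% and 8.33%, beside 6.59% and 6.53% of all genes). The median was -0.01, and 4 were higher without both the 62 h and 74 h profiles. Insig1, an SREBP target whose product retains SREBP in the endoplasmic reticulum, rose by 0.52 ± 0.08, and Stard4, a sterol carrier gene, rose by 0.66 ± 0.07. With the spread taken from 12 or 18 profiles Insig1 did not pass (adjusted p up to 0.0893) and 1 member of the list was higher. Srebf1 (-0.07 ± 0.08) and Srebf2 (0.28 ± 0.08, adjusted p = 0.0626), the SREBP genes themselves, did not pass. Abca1, which encodes the pump that exports cholesterol from cells, read 11.63, 11.66 and 11.62 at CT14, against 12.58, 12.49 and 12.43 at CT2. The CT14 values were almost equal to each other and well below CT2, with a difference of -0.86 ± 0.05 (adjusted p = 3.27e-05). Scarb1, the receptor gene for uptake of HDL cholesterol, rose by 0.27 ± 0.04. Of 11 tested uptake and storage genes, 3 were higher and 1 lower (27.3% and 9.09%, beside 6.59% and 6.53% of all genes). However, Npc1 and Lipa passed again in 1 of the 6 fits that leave out a profile, and the higher count was 1 in each of the others. They kept their calls without 74 h, where 4 members were higher.

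Steroid synthesis genes changed little. Of 14 tested, 1 was higher and 0 lower (7.14% and 0%, beside 6.59% and 6.53% of all genes), and the median was -0.02. Without both the 62 h and 74 h profiles 1 was higher. Nr5a1, which encodes the cortex factor SF-1, read 11.89, 11.57 and 11.70 at CT14, against 11.16, 11.12 and 11.23 at CT2. The profiles did not overlap, and the difference was 0.55 ± 0.08 (adjusted p = 0.00255). Star, whose product brings cholesterol into mitochondria, read 13.70, 13.67 and 13.69 at CT14, against 13.63, 13.65 and 13.48 at CT2, and did not pass (0.10 ± 0.04, adjusted p = 0.196). Of 2 other Star probe sets, 1 passed, with 0.16. Cyp11a1, the side-chain cleavage enzyme gene, averaged 13.62 ± 0.03 at CT14 and 13.66 ± 0.02 at CT2 (SD, n = 3), and Cyp11b1 and Cyp11b2, for the last steps to corticosterone and aldosterone, differed by -0.02 and 0.02. Signals of Star and Cyp11a1 were close to 13.76, the highest value on these arrays, where a change may not be measured in full; how the authors' scale behaves there was not tested. These cortex genes, and the medulla marker Chga below, were bright at both times, as the label of whole adrenal calls for.

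Genes of ACTH and cyclic AMP signalling were evenly divided, with 6 of 29 higher and 6 lower (20.7% each, beside 6.59% and 6.53% of all genes) and a median of 0.01. Without both the 62 h and 74 h profiles 4 were higher and 4 lower. Mc2r, the ACTH receptor gene, read 12.44, 12.18 and 12.30 at CT14, against 12.68, 12.68 and 12.62 at CT2. All CT14 profiles were lower, by 0.35 on the log2 scale (adjusted p = 0.00731). Mrap, which carries that receptor to the cell surface, fell by 0.19 and lost its call without 50 h B or 38 h (adjusted p up to 0.0878). Prkar2b, a regulatory subunit gene of protein kinase A, read 12.69, 12.68 and 12.73 at CT14, against 12.04, 12.00 and 12.19 at CT2, a difference of 0.63 ± 0.05 (adjusted p = 0.000218). The catalytic subunit gene Prkaca fell by 0.22. The phosphodiesterases that break down cyclic AMP moved apart: Pde8a rose by 0.34 ± 0.05 and Pde8b fell, by 0.64 ± 0.10 on the log2 scale. The cyclase gene Adcy6 rose by 0.47 ± 0.06 and Crem, a cyclic AMP responsive factor gene, by 0.64 ± 0.12. Lower members numbered 3 without the 50 h B or 38 h profile, and Adcy7, Adcy8, Adcy9 and Crtc3 passed again in at most 2 of the 6 fits that leave out a profile.

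Heat shock chaperones and their partners were mostly higher. Of 26 tested genes 15 were higher at CT14 and 0 lower (57.7% higher, beside 6.59% of all genes), with a median of 0.17. Summed signal was 107007 to 108995 at CT14, against 94398 to 97748 at CT2, without overlap. The differences were smaller than those of cholesterol synthesis, and the count was 9 without the 38 h profile, 9 without 62 h, and 9 without both 62 h and 74 h. With the spread taken from 18 profiles it was 3, and Hspa1b, Hsph1 and Chordc1 did not pass (adjusted p of 0.0568, 0.101 and 0.0565, limma). The genes that passed in every one of the 6 fits were Hspa1a, Hspa1b, Hsph1, Dnajb1, Ahsa2, Chordc1, Fkbp4 and Bag3. Hspa1b, an inducible HSP70 gene, read 12.79, 12.56 and 12.66 at CT14, against 11.98, 11.89 and 12.05 at CT2, a difference of 0.70 ± 0.06 (adjusted p = 0.000344). Hspa1a, its near-identical neighbour, differed by 0.78 ± 0.09, and probes may not separate the pair. Hsph1, for a nucleotide exchange factor of HSP70, differed by 0.42 ± 0.05, and Chordc1, for an HSP90 partner, by 0.47 ± 0.06. Hspd1 (0 ± 0.03), Hspb1 (-0.15 ± 0.06) and Cryab (-0.08 ± 0.08) did not pass. Of the 8 genes of CCT, the chaperonin that folds actin and tubulin, 1 was higher (12.5%, beside 6.59% of all genes). This gene, Cct7, differed by 0.21 ± 0.05. Its call was kept only without the 74 h profile (limma adjusted p up to 0.0872 in the other 5 fits).

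Of 27 tested chaperone and stress response (unfolded protein response) genes of the endoplasmic reticulum 11 were higher (40.7%, beside 6.59% of all genes) and 1, Derl1, lower. The median was 0.15, and summed signals were 90379 to 95177 at CT14, against 81941 to 83925 at CT2. The higher genes were Hspa5, Hsp90b1, Manf, Dnajb9, Dnajb11, Hyou1, Xbp1, Atf4, Atf6, Ddit3 and Herpud1. The folding genes Calr, Canx, Pdia3, Pdia4, Pdia6 and P4hb were among the 15 that did not pass. Herpud1, which takes part in the removal of misfolded proteins, read 11.23, 11.41 and 11.41 at CT14, against 10.60, 10.64 and 10.67 at CT2, a difference of 0.71 ± 0.06 (adjusted p = 0.000251). Dnajb9, a helper of the chaperone BiP, rose by 0.42 ± 0.06 and Manf, a secreted stress protein gene, by 0.32 ± 0.05. Those 3 alone passed in every fit that left out a profile. Ddit3, which encodes the stress factor CHOP, rose by 0.50 ± 0.10 but did not pass without 50 h B, 38 h or 62 h (adjusted p up to 0.062). The higher count was 3 without 50 h B, 5 without 38 h or without 62 h, 6 and 7 without either averaged pair, and 7 without both 62 h and 74 h. It was 4 with the spread taken from 18 profiles.

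Promoters of 1 gene from the heat shock list and 1 from the endoplasmic reticulum list are printed for the sites of their stress factors. Hspa1b (chr17:34959239-34959488, minus strand) has the heat shock element letters GAANNTTC in capitals, and Hsp90b1 (chr10:86705445-86705694, minus strand), an HSP90 gene of the endoplasmic reticulum, has 2 copies of the endoplasmic reticulum stress element in capitals. Both are RefSeq sequences on GRCm38.p6.
Hspa1b: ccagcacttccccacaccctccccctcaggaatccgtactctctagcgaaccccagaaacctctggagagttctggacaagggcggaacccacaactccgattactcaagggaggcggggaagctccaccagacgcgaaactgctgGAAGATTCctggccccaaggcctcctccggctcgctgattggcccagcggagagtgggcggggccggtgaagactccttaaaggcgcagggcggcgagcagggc
Hsp90b1: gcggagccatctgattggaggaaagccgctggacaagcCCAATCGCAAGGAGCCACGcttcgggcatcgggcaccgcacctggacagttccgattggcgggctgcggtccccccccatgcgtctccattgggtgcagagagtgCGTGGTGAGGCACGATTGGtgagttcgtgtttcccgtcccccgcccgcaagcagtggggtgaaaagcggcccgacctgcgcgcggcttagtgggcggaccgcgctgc
GAANNTTC was found in 5 of the 13 higher heat shock genes with a promoter (Dnaja1, Fkbp4, Hspa1a, Hspa1b and Hspe1), or 38.5%, and in 5.64% of all higher, 5.96% of all lower and 6.29% of all tested genes. The endoplasmic reticulum element was found in 16 of 11116 promoters (0.144%). Of these, 2 (Hsp90b1 and Hspa5) were among the 8 higher genes of the endoplasmic reticulum list with a promoter. Hsp90b1 itself differed by 0.12 ± 0.03 and passed again only without the 74 h profile (adjusted p up to 0.144).

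Tfrc, the transferrin receptor gene through which cells take up iron, had the second largest rise. It read 11.66, 11.89 and 11.95 at CT14, against 9.65, 9.72 and 9.76 at CT2. The CT2 profiles were almost equal and all far below CT14, with a difference of 2.12 ± 0.08 (4.35-fold, adjusted p = 4.85e-06). Its other, dimmer probe set differed by 0.36. Slc40a1, which encodes the iron exporter ferroportin, read 9.95, 9.62 and 9.58 at CT14, against 10.54, 10.51 and 10.33 at CT2, and fell by 0.74 on the log2 scale (adjusted p = 0.00242). Alas1, the first enzyme gene of heme synthesis, rose by 0.51 ± 0.07. Hmox1, the heme-degrading oxygenase gene, rose by 0.59 ± 0.13 but not past the threshold without 50 h B (adjusted p = 0.0558). Of 18 iron and heme genes, 3 were higher (16.7%, beside 6.59% of all genes) and 1 lower (5.56%, beside 6.53%).

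The medulla was marked by Chga, the gene of the chromaffin granule protein, at 13.31, 13.25 and 13.33 at CT14 and 13.26, 13.28 and 13.25 at CT2. Of 22 catecholamine and chromaffin genes tested, 1 was higher and 1 lower (4.55% each, below the 6.59% and 6.53% of all genes), with a median of -0.03, and 3 were higher without the 74 h profile. Pnmt, the enzyme gene that turns noradrenaline into adrenaline, read 12.81, 12.89 and 13.02 at CT14, against 11.69, 11.72 and 11.20 at CT2. Its profiles did not overlap, the difference was 1.37 ± 0.12 (2.59-fold, adjusted p = 0.000344), and its other probe set differed by 1.32. Slc6a2, for the noradrenaline transporter, read 7.79, 6.98 and 7.52 at CT14, against 9.77, 9.86 and 10.03 at CT2. All CT14 values were lower by far, with a difference of -2.46 ± 0.18 (adjusted p = 0.000103). The CT14 signals were dim, below the signal of 183 at which genes were filtered on their mean, and the difference was -2.9 with an offset of 1 and -1.75 with an offset 4 times larger, so no fold is given for Slc6a2. Of 3 other Slc6a2 probe sets, 1 passed, with -0.30, and 2 did not, with -0.10 and 0.11. Th, for the rate-limiting enzyme of catecholamine synthesis, averaged 12.51 ± 0.12 at CT14 and 12.29 ± 0.09 at CT2 (SD, n = 3) and did not pass (adjusted p = 0.0623), though it did without 74 h (0.0447). In RNA of a whole gland, fewer cells of a type and less RNA per cell cannot be told apart.

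Several of the largest changes lay outside the lists. Fabp7, a fatty acid binding protein gene, read 6.73, 6.97 and 6.88 at CT14, against 8.82, 8.87 and 9.35 at CT2. The CT14 values were close to 5.67, the value at a signal of 0, so the difference of -2.15 ± 0.14 (adjusted p = 8.09e-05) may understate the fold. Mmd2, for a membrane protein of the PAQR family, read 10.76, 10.15 and 10.45 at CT14, against 12.61, 12.57 and 12.34 at CT2, a difference of -2.05 ± 0.13, and its other probe set differed by -2.03. Plin5, a lipid droplet protein gene, fell by 1.56 on the log2 scale, and its other probe set by 1.41. In these 3 genes the groups were well separated.

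The promoter of Fabp7 (chr10:57784673-57784922, plus strand, GRCm38.p6, RefSeq) is printed because the gene had the second largest fall and the 250 bases hold a match to the element bound by REV-ERB and ROR proteins. Capitals mark TAGGTCA, here on the opposite strand and so printed as its reverse complement, TGACCTA.
Fabp7: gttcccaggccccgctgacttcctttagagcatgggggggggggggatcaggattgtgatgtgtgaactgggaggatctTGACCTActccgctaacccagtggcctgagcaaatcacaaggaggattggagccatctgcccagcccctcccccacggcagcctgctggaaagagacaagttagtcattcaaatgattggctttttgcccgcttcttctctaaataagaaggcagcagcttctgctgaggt
The match begins 171 bases before the start. The element was found on either strand in 2.57% of lower, 1.24% of higher and 2.1% of all genes with a promoter.

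Other large falls were those of Cited1, a transcription coactivator gene (-1.54 ± 0.26), Hhex, a homeobox gene (-1.31 ± 0.13), Myo1a, a myosin gene (-1.39 ± 0.11), Crym, for a protein that binds thyroid hormone (-1.23 ± 0.13), Pdlim4 (-1.27 ± 0.12) and Serpinb1a, a protease inhibitor gene (-1.19 ± 0.11). Hhex was among the bright ones, with 11.07, 11.51 and 11.66 at CT14, against 12.75, 12.78 and 12.62 at CT2. Cited1 was the most scattered, with 8.34, 8.91 and 9.19 at CT14, against 10.59, 10.70 and 9.76 at CT2, without overlap, and it did not pass under robust eBayes (adjusted p = 0.0645, limma). Col5a3, a collagen chain gene, read 9.86, 9.28 and 9.62 at CT14, against 11.27, 11.30 and 11.23 at CT2 (-1.68 ± 0.12), but a second, dimmer probe set differed by 0.04. Among large rises were Fmo2, a flavin monooxygenase gene, with 10.77, 10.81 and 10.72 at CT14, against 9.26, 9.47 and 9.27 at CT2 (1.43 ± 0.07, adjusted p = 1.71e-05), and 4930533K18Rik, named only by a clone identifier (1.78 ± 0.07). Rptn, an epidermal matrix protein gene, rose by 1.40 ± 0.17, and the probe set of the homeobox gene Hoxd13 by 1.26 ± 0.12. A second Hoxd13 probe set differed by 0.08. The first was dim, with means of 8.22 at CT14, 6.96 at CT2, 6.98 at CT6 and 7.52 at CT22. Its mean over all 18 profiles was 8.28, so it passed the filter on dim signals through CT10 and CT18. Its CT2 level was near the 5.67 of a signal of 0, and the difference ran from 0.70 to 1.74 over the alternatives.

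Genes induced by glucocorticoids and immediate early genes did not move one way. Of 19 glucocorticoid-induced genes 4 were higher and 3 lower (21.1% and 15.8%, beside 6.59% and 6.53% of all genes, median 0.06), and without both the 62 h and 74 h profiles 5 and 2 were. Tsc22d3, which encodes GILZ and is a direct target of the glucocorticoid receptor, read 11.63, 11.59 and 11.54 at CT14, against 10.75, 10.75 and 10.77 at CT2. Both sets were tight and apart, with a difference of 0.83 ± 0.05 (adjusted p = 3.27e-05). Fkbp5, for a co-chaperone of that receptor, rose by 0.32 ± 0.05, while Cdkn1c, for the cell cycle inhibitor p57, fell by 0.73 on the log2 scale. Of 23 immediate early genes 4 were higher and 2 lower (17.4% and 8.7%, beside 6.59% and 6.53% of all genes, median 0.01). Nr4a3, an orphan receptor gene, rose by 0.54 ± 0.09, Klf6 by 0.35 ± 0.05 and Btg1 by 0.28 ± 0.05, and Ier5 fell by 0.55. A second, dimmer Nr4a3 probe set differed by -0.02 and did not pass. Other Klf6 probe sets differed by 0.41 and 0.36, which passed, and by 0.35 and 0.11, which did not. Fos, Jun, Egr1 and Nr4a1 did not pass. Lower members numbered 7 without the averaged CT2 B profile and 1 without both the 62 h and 74 h profiles. Summed signals of the 23 genes overlapped, at 36252 to 43374 at CT14 and 33849 to 42895 at CT2.

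In the zona glomerulosa list, the outer cortex that makes aldosterone, 4 of 15 genes were higher and 2 lower. These were 26.7% and 13.3% of the list, beside 6.59% and 6.53% of all genes. Kcnk3, a potassium channel gene, rose by 0.25 ± 0.04 and Dab2, an endocytic adaptor gene, by 0.27 ± 0.05. Other Dab2 probe sets differed by 0.23, 0.10 and 0.41 and did not pass. Other Kcnk3 probe sets differed by 0.25, which did not pass, and 0.82, which did. Cacna1h, for a T-type calcium channel, read 10.85, 10.26 and 10.50 at CT14, against 11.17, 11.25 and 11.12 at CT2, and fell by 0.64 on the log2 scale. Shh, the hedgehog ligand gene of that zone, fell by 0.60, but did not pass without 38 h or 62 h (adjusted p up to 0.0706), and Agtr1a and Vsnl1 were among the higher genes in at most 2 of the 6 fits that leave out a profile. Among 14 endothelial genes, 3 were higher and 2 lower (21.4% and 14.3%, beside 6.59% and 6.53% of all genes). Eng, a TGF-beta co-receptor gene, rose by 0.38 ± 0.07, but its dimmer probe set differed by 0.06 and did not pass. Cldn5, a tight junction gene, fell by 0.63. Cdh5 (limma adjusted p up to 0.0649), Tie1 (up to 0.115) and Vegfa (up to 0.0904) lost their calls when single profiles were left out. Eng, by its brighter probe set alone, and Cldn5 thus moved in opposite directions.

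Calls in 5 smaller groups are set beside the 6.59% higher and 6.53% lower among all genes. Higher members were 0% of the replication, 15% of the antioxidant and 23.1% of the cold-inducible and splicing genes. They were 0% of the proteasome and 12.5% of the amino acid transport genes. Lower members were 13.6%, 5%, 7.69%, 6.45% and 0% in the same order. Of 22 DNA replication and mitosis genes 0 were higher and 3 lower, all of the MCM helicase that opens replication origins: Mcm6 fell by 0.48, Mcm7 by 0.34 and Mcm5 by 0.34, and for Mcm6 alone the call held whichever profile was left out (for the others adjusted p reached 0.078). Of 20 antioxidant genes 3 were higher and 1 lower. Srxn1, for the sulfiredoxin that restores oxidised peroxiredoxins, read 11.39, 11.40 and 11.51 at CT14, against 10.54, 10.59 and 10.49 at CT2, a clear separation (0.89 ± 0.06, adjusted p = 5.65e-05), whereas Txnrd1, Txnrd2 and Sod2 lost their calls when single profiles were left out (up to 0.118). Of 13 cold-inducible and splicing genes 3 were higher and Cirbp, a cold-inducible RNA binding protein gene, was lower, with 9.33, 8.88 and 9.27 at CT14, against 9.91, 10.13 and 10.18 at CT2 (-0.92 ± 0.12, adjusted p = 0.00185). The 3 higher ones, Srsf1, Srsf2 and Tra2a, differed by 0.17 to 0.34, and 0 of them passed without 50 h B, while without 74 h 6 members of the list were higher. Of 31 proteasome genes 0 were higher and 2 lower, by at most 0.18 on the log2 scale, and neither Psmb5 nor Psmc2 passed without 38 h or 62 h. Of 16 amino acid transport genes 2 were higher: Slc3a2, the heavy chain of several transporters, rose by 0.30 ± 0.05, and Slc43a1 by 0.35 ± 0.07, but Slc43a1 did not pass without 38 h (adjusted p = 0.0612).

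**Figure D3:**
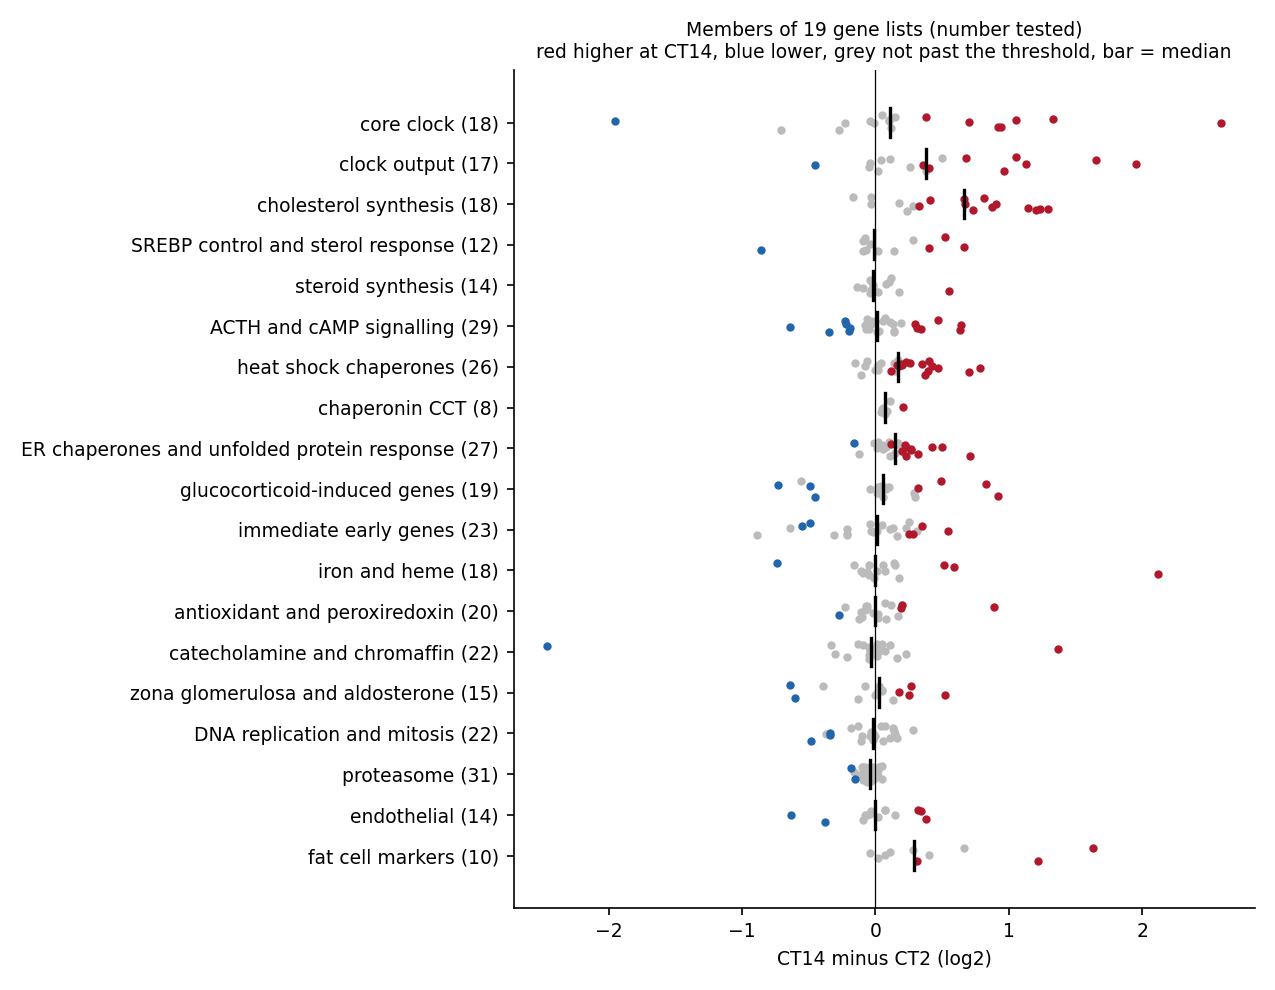
Differences between CT14 and CT2 (x axis, log2) of the tested members of 19 gene lists, 1 point per gene, with the number tested in brackets and a black bar at each median. Red points were higher at CT14, blue points lower, and grey points did not pass. The cholesterol synthesis points lie mostly to the right of 0, around a median of 0.66, while the steroid synthesis points cluster at 0.

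Some markers of neighbouring tissues also differed, while most did not. Of 10 fat cell markers 3 were higher at CT14 (30%, beside 6.59% of all genes) and 0 lower, and their summed signal was 57183 to 77605 at CT14, against 49688 to 55151 at CT2. Ucp1, the uncoupling protein of brown fat, read 11.98, 13.18 and 12.64 at CT14, against 10.63, 11.05 and 11.24 at CT2 (1.63 ± 0.26, adjusted p = 0.00487), and Cidec, a lipid droplet protein gene, differed by 1.22 ± 0.19. The 74 h profile was highest in both. With the spread taken from 12 or 18 profiles 0 of the 10 passed (limma; adjusted p up to 0.196 for Ucp1), and Ucp1 did not pass under robust eBayes either. Lpl, the lipoprotein lipase gene, passed (0.31 ± 0.08) but did not without 74 h, 50 h B, 62 h or the averaged CT2 B profile. The defining marker Adipoq was bright at both times, at 12.75 ± 0.21 at CT14 and 12.64 ± 0.14 at CT2 (SD, n = 3), and did not pass, nor did Lep, Fabp4, Retn, Car3, Cidea and Pck1. Of the 4 liver markers tested 1, Cyp2e1, was higher (0.49 ± 0.08). Alb (-0.60 ± 0.70), Apoa2 (0.11 ± 0.09) and Ttr (-0.15 ± 0.12) did not pass, so the liver list rests on Cyp2e1 alone. Among 4 muscle, 3 kidney and 6 blood markers 0 passed. The part of the fat tissue in the other results was not tested. The counts without the 62 h and 74 h profiles were chosen on albumin, a liver transcript, and do not test for fat tissue.

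The other pair of circadian times 12 h apart with a like ThrX-3 signal (62.3 to 101 at CT22 and 61.5 to 79.4 at CT6) shares no array with CT14 and CT2. There, 46 of 13880 genes (0.331%) differed, 31 higher (0.223%) and 15 lower (0.108%) at CT22, and 1937 did at an unadjusted p under 0.05. That count fell to between 2 and 8 without any 1 of the CT6 profiles or the 58 h profile, was 23 without the averaged 58 h B and 82 h B arrays and was 83 without the 82 h profile. Of the genes called, 25 were called in both comparisons, 1.37% of the 1821 and 54.3% of the 46. Among them 16 were higher at CT14 than CT2 and also higher at CT22 than CT6, 3 were lower in both, 2 (Dbp and Nr1d2) were higher at CT14 and lower at CT22, and 4 were lower at CT14 and higher at CT22.

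Clock genes differed in their course over the 4 times. Arntl averaged 10.76 at CT2, 8.80 at CT6, 8.81 at CT14 and 11.01 at CT22, so it was low at both CT6 and CT14. Dbp averaged 9.48 at CT2, 12.43 at CT6, 11.43 at CT14 and 8.76 at CT22, so its CT14 level was below that at CT6. Cry1 averaged 8.75, 7.52, 9.81 and 9.86 at CT2, CT6, CT14 and CT22, highest at the last pair of times. Per2 averaged 8.67, 9.59, 11.26 and 9.36 and did not differ past the threshold between CT22 and CT6 (-0.23 ± 0.27). Nr1d1, which did not pass between CT14 and CT2, averaged 7.79 at CT22 and 10.72 at CT6, a difference of -2.93 ± 0.22 (adjusted p = 0.008).

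Cholesterol synthesis kept its direction: 6 of 18 genes were higher and 0 lower at CT22 than at CT6, beside 0.223% and 0.108% of all genes. The median was 0.48, and all 12 genes higher at CT14 were also above 0 in that difference. Sqle averaged 10.88 ± 0.31 at CT22 and 9.59 ± 0.08 at CT6 (SD, n = 3), a difference of 1.28 ± 0.15 (adjusted p = 0.0273). Of the 26 heat shock genes 6 were higher and 0 lower at CT22 than CT6, beside the same shares of all genes. Both list counts come from the 46 calls of this pair. These fell to between 2 and 8 without any 1 of the CT6 profiles or the 58 h profile. Pnmt was higher in both comparisons (0.85 ± 0.12 at CT22 over CT6). Tfrc (0.59 ± 0.40), Slc6a2 (-0.98 ± 0.31) and Fabp7 (-0.66 ± 0.21) kept their sign but did not pass there. Over all genes, 555 of the 915 higher at CT14 (60.7%) were also above 0 for CT22 minus CT6, beside 47.4% of all genes, and 639 of the 906 lower (70.5%) were below 0, beside 52.6% of all genes. For 928 of the 1821 called genes (51%) the CT6 and CT22 means both lay between those of CT2 and CT14, beside 20.6% of all genes. Calling genes for a wide gap between CT14 and CT2 itself favours means in between, so nothing is read from these shares.

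**Figure D4:**
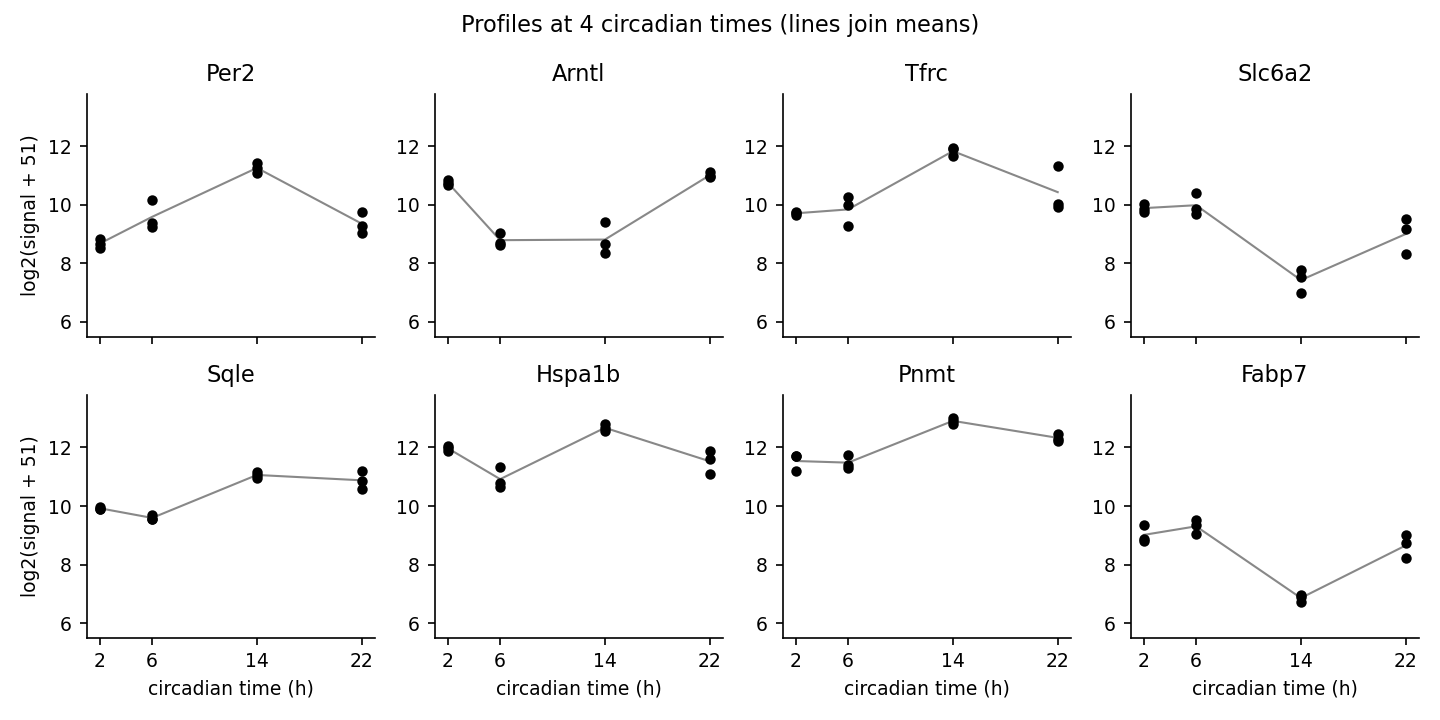
Levels of 8 genes at CT2, CT6, CT14 and CT22 (x axis, circadian time in h), with log2(signal + 51) on the y axis, 1 point per profile and lines through the means. Per2, Tfrc, Sqle, Hspa1b and Pnmt have their highest mean at CT14 and Slc6a2 and Fabp7 their lowest, while Arntl is as low at CT6 as at CT14.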

How the data were processed

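RNA of whole adrenals was purified on columns, labelled with biotin and hybridised to oligonucleotide arrays, per the labels' protocols. The authors deposited 1 linear intensity per probe set and array; the steps of summarising and scaling are not given in the sources used here. No read depth applies, and precision is limited by how many arrays there are.

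Each intensity was converted to log2(intensity + 51), the offset being the 10th percentile of the deposited data. Of 45101 probe sets, 64 were controls, 34945 had 1 gene symbol in the platform annotation (which can be old), 932 had several and 9160 were not listed. Each gene was represented by its brightest probe set with a mean above the 40th percentile (a signal of 183). Columns were grouped by the hours in their titles, and near-copies (the lower value at most 5% below the higher at signals over 50) were averaged and counted as 1 sample, which gave 18 profiles in the series. A moderated test with trend (limma 3.58.1, R 4.3.3) compared 3 CT14 with 3 CT2 profiles without covariates, and likewise CT22 with CT6, with Benjamini-Hochberg adjustment over 13880 genes and a threshold of 0.05. The script was tested on simulated data.

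Named genes are all tested core clock genes, the 12 largest rises and the 12 largest falls among calls with separate profiles, and from each list with a call the 4 genes of smallest p, 121 in all. Other members, such as Mc2r, were named after their values were seen. The genes, the 26 lists and the comparison itself were chosen with earlier results of these data known. Some list members are not reported here. Alternatives changed the offset, filter, normalization, probe set, variance model and samples. Promoter sequences come from RefSeq (GRCm38.p6), and motifs were searched in the 250 bases before each start on both strands.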

Additional observations from a re-analysis of the deposited data

How the results depend on the processing

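Counts of genes depended on how samples entered the fit more than on the offset, filter or variance model. With near-copies counted as separate samples, 1904 genes were higher and 1715 lower at CT14, and 983 differed between CT22 and CT6. With the letter as a replicate block over all 8 columns, 1952 were higher and 1737 lower. Deviations of B arrays from unlettered ones at CT14 and at CT2 correlated at -0.01 over genes. Since near-copies lie across the letters at CT14 and within B at CT2, this value cannot show whether the letters pair the samples. With near-copy pairs left out, which leaves 2 profiles per time, 524 were higher and 524 lower. A fit over 12 profiles of 4 circadian times gave 599 and 584, and one over all 18 profiles 317 and 343. Without the 62 h and 74 h profiles (chosen after seeing the data) 500 were lower. Leaving out 1 profile gave 449 to 979 higher and 415 to 727 lower genes, and 2 to 83 between CT22 and CT6 (3 without the averaged 66 h and 42 h B arrays, 23 without the averaged 58 h B and 82 h B arrays). The cause was not tested.

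Of the 94 named genes that passed, 53 passed under every alternative that tested them and 0 changed sign. Of the 27 that did not pass, 15 passed somewhere. Signs turned only for genes that had not passed. With 1 profile left out Csnk1e ranged from -0.08 to 0.03, Fbxw11 from -0.03 to 0.03, Ttr from -0.23 to 0 and Alb from -1.24 to 0.22. Without 62 h and 74 h both Csnk1e and Fbxw11 were 0.04, and another probe set gave 0.14 for Fbxw11.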
